A study of Chlamydomonas reinhardtii with 9 samples.

Results

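The transcript response of Chlamydomonas reinhardtii, a unicellular green alga, to 0.05 nM methylmercury (MeHg) was described from 3 exposed and 3 control libraries, 6 of the 9 libraries in the series. The libraries were chosen by their labelled treatment. The lower-dose group held wild-type cells of strain CPCC11 that were given 0.05 nM MeHg for 2 h, and the control group held cells of the same strain in the same artificial freshwater medium for 2 h without it. The other 3 libraries came from cells given 0.5 nM MeHg for 2 h and were used to estimate the spread and to compare the doses. The design names 3 biological replicates per condition and does not say whether they were separate cultures of 1 day or of several. Only the labels of the 0.05 nM samples name a sequencer, an Illumina HiSeq model, and they word the source of the cells differently, so a separate submission or run cannot be told apart from the dose.

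Methylmercury is an organic form of mercury that crosses membranes and binds to thiol groups, such as those of cysteine and of glutathione. Algal cells are known to answer toxic metals with thiol compounds, antioxidant enzymes, metal transporters and chaperones, and the gene lists below were built around these systems and around photosynthesis. Chlamydomonas also has a carbon concentrating mechanism, a set of bicarbonate transporters, carbonic anhydrases and associated proteins that is known to be induced when carbon dioxide is scarce. Neither the deposited files nor the gene table used here pair identifiers with gene names, so genes are given by identifier. The 16 lists rest on 182 locus numbers recalled from the version 5 numbering of the genome, of which 151 were in the files and 147 had enough counts to be tested. No table used here could check them, so a locus is described only as a member of its list.

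Assigned counts per library were 16677063 to 18618380 at 0.05 nM, against 15184307 to 20371000 in the controls. Multi-mapped alignments, left unassigned, came to 19.0% to 21.6% of the assigned count at 0.05 nM, against 24.2% to 43.7% in the controls. The 10 genes with the most reads took 5.74% to 6.07% of assigned reads at 0.05 nM, against 6.86% to 7.35% in the controls. Neither difference was tested for its part in the results below. Levels are given as CPM, counts scaled to a common library size after TMM correction for composition. A CPM value is relative to all mRNA of a library and is not divided by transcript length, so a change in RNA per cell cannot be seen, and levels are compared only within a gene.

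At 0.05 nM MeHg, about as many genes rose as fell relative to control, and the rises reached further. Of 14778 genes tested with edgeR's quasi-likelihood test (Benjamini-Hochberg adjusted p under 0.05, two-sided), 4015 rose, or 27.2%, and 3699 fell, or 25.0%, so that 52.2% changed in either direction. These shares are the background against which counts of list members are set below. They differed between level classes, as given further on. Most changes were modest. The median gene that rose reached 1.74 times its control level, and the median gene that fell kept 0.607 of it. A log2 change of 1 or more was reached by 1345 genes that rose (9.1% of those tested) and by 1039 that fell (7.03%). At 2 or more on that scale there were 147 rises and 27 falls, and at 3 or more there were 13 rises and 3 falls. The 3 exposed libraries lay above all 3 controls for 31.8% of genes and below all 3 for 28.3%.

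**Figure D1:**
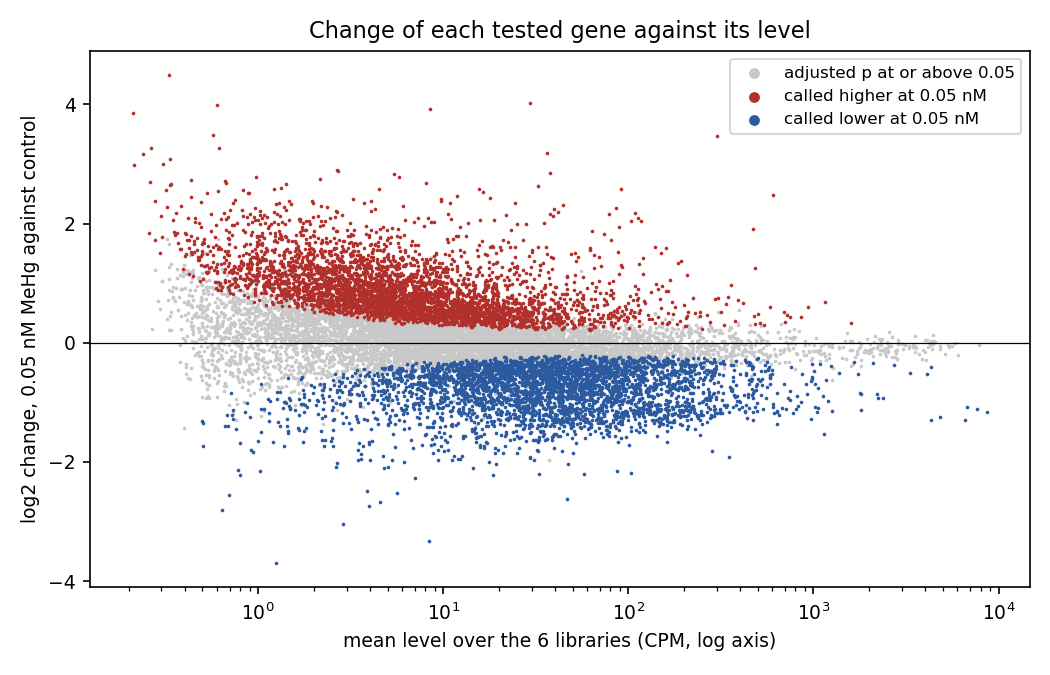
Each point is 1 of the 14778 genes tested, with its mean level over the 3 exposed and 3 control libraries (CPM, log axis) against its log2 change at 0.05 nM MeHg relative to control. Red points mark the 4015 genes called higher, blue points the 3699 called lower and grey points the rest; rises extend further than falls, and blue points gather to the right.

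On the TMM scale, the direction of the change went with the number of reads a gene drew. Among genes with a mean of 1 to 10 CPM over the 6 libraries, 42.4% rose and 8.97% fell, with a median log2 change of 0.41. Among genes of 100 to 1000 CPM, 6.58% rose and 51.0% fell, with a median of -0.32. In the top class of 170 genes at 1000 CPM or more, 1.18% rose and 19.4% fell. Below 1 CPM, 31.2% rose and 2.53% fell, but the filter on low counts kept such a gene if 1 group was high enough, so this class is less even a sample of genes. The genes that rose together drew 8.92%, 8.66% and 9.44% of assigned reads in the exposed libraries, against 4.81%, 4.77% and 4.28% in the controls. The genes that fell drew 27.7%, 27.4% and 27.3% at 0.05 nM, against 42.2%, 38.8% and 38.5% in the controls. The calls themselves picked these genes, so their read shares are a description.

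**Figure D2:**
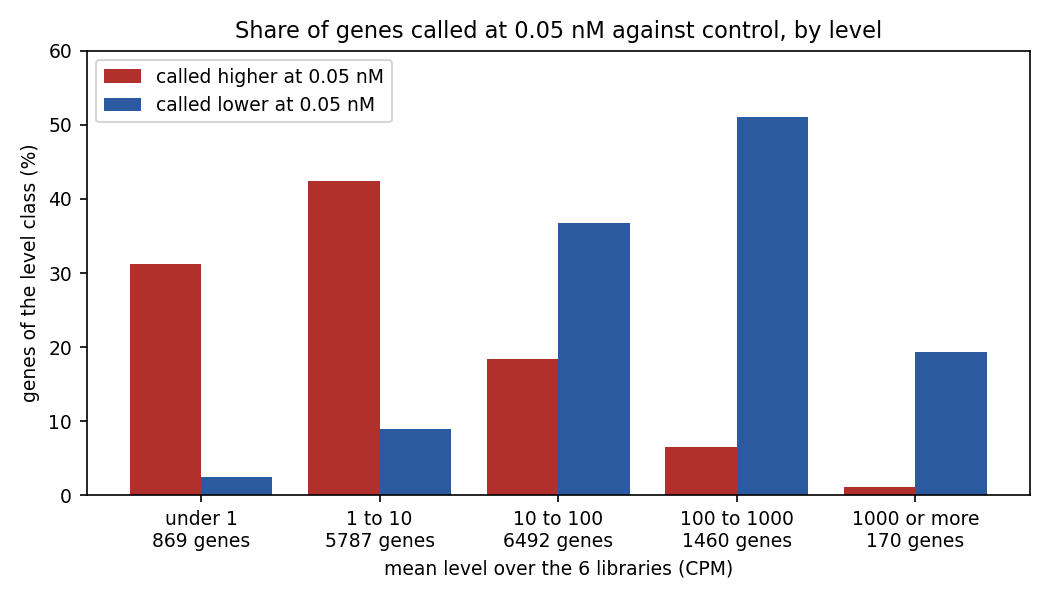
Bars give the percent of genes in each level class (mean CPM over the 6 libraries, with the number of genes) called higher (red) or lower (blue) at 0.05 nM MeHg against control. The red bar is the taller one in the classes under 10 CPM and the blue bar in those above.

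Where the calls fell between the directions depended on the scaling. With DESeq2 3420 genes rose and 4026 fell, and with its size factors in edgeR 3672 rose and 4045 fell. At a log2 change of 1 or more, DESeq2 gave 1202 rises and 1173 falls, and its size factors in edgeR gave 1216 and 1169. With library totals alone in place of TMM, the median gene moved up by 0.26 on the log2 scale, and 5905 genes rose and 2080 fell. Under that scaling 55.8% of genes of 1 to 10 CPM were higher and 4.54% lower, and 17.5% of genes of 100 to 1000 CPM were higher and 30.4% lower. The largest class, the 6492 genes of 10 to 100 CPM, turned with the scaling: 18.4% rose and 36.7% fell on the TMM scale, with a median log2 change of -0.14, and 31.5% rose and 20.6% fell with library totals alone, with a median of 0.12. At 1000 CPM or more, 8.24% rose and 11.8% fell with library totals alone, and the median turned to 0.15 there, against -0.12 on the TMM scale. No gene was called in opposite directions by TMM and library totals, which use the same counts. Directions below are relative to the TMM scale, and those that turn with library totals are named.

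The carbon concentrating mechanism list had the highest median of the 16 lists. Of 20 recalled numbers, 18 were in the files and tested; 16 rose, 1 fell and 1 did not pass, with a median log2 change of 2.10, or 4.29-fold, beside a median of 0.05 over all genes. The 16 that rose lay above all controls in every exposed library. Over all genes, 27.2% rose and 31.8% lay above all controls. Summed over the 18 loci, the level was 6128 ± 419.6 CPM at 0.05 nM, against 3167 ± 428 CPM in the controls (SD, n = 3 each).

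The steepest rise of the list was at Cre03.g162800, with 14.4, 14.2 and 19.00 CPM at 0.05 nM, against 0.934, 1.13 and 1.08 CPM in control libraries. Its log2 change was 3.92 ± 0.831 (SE; adjusted p = 0.00528), and all 3 controls were near 1 CPM. The SE draws on all 9 libraries, and at 0.5 nM this locus was uneven, with 29.9, 27.3 and 127 CPM. Cre06.g309000 stood at 490.4, 532 and 635 CPM at 0.05 nM, against 38.8, 66.4 and 44.1 CPM in control libraries, a log2 change of 3.48 ± 0.242 (SE; adjusted p = 2.19e-06). The groups were an order of magnitude apart at this abundant locus, and the spread within each group was small beside that distance. Cre04.g222800 had 57.2, 62.2 and 76.9 CPM at 0.05 nM, against 6.49, 8.74 and 6.49 CPM in control libraries, a log2 change of 3.18 ± 0.233 (SE; adjusted p = 2.73e-06). At Cre04.g223300 the levels were 58.7, 61.7 and 78.9 CPM at 0.05 nM, against 8.20, 11.7 and 8.01 CPM in control libraries, a log2 change of 2.84 ± 0.396 (SE; adjusted p = 0.000372). In these 4 loci every exposed library was several times above the highest control. Cre02.g097800, the locus with the most reads among those of the list that rose, had 1098, 906 and 1079 CPM at 0.05 nM, against 182, 216 and 155 CPM in control libraries, and its log2 change was 2.48 ± 0.189 (SE; adjusted p = 2.73e-06).

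The remaining members that rose changed by 0.51 to 2.83 on the log2 scale. At the low end was Cre04.g223100, with 168, 204 and 203 CPM at 0.05 nM, against 105, 158 and 142 CPM in control libraries (log2 change 0.51, adjusted p = 0.0468). Its neighbour by number, Cre04.g223050, went the other way, with 2.68, 3.74 and 3.56 CPM at 0.05 nM, against 4.98, 5.80 and 5.12 CPM in control libraries (log2 change -0.67, adjusted p = 0.0146). That fall was the only one in the list, and it was not called with library totals alone or without 0.05 nM replicate 1. Cre10.g436550, at 1669, 1885 and 1763 CPM at 0.05 nM, against 1756, 2221 and 1979 CPM in control libraries, overlapped between the groups and did not pass (adjusted p = 0.369). These 3 loci, together with the pair below, were singled out after their values were seen. The pair Cre05.g248400 and Cre05.g248450 moved in step between replicates as well as between groups. Cre05.g248450 had 107, 190.1 and 233 CPM at 0.05 nM, against 20.4, 51.4 and 45.8 CPM in control libraries, and Cre05.g248400 had 122, 199 and 241 CPM at 0.05 nM, against 22.5, 58.2 and 55.8 CPM in control libraries, with replicate 1 the lowest of each group at both. Carbonic anhydrase genes of this alga are known to include near-identical copies, whose reads may be split or lost when only unique alignments are counted.

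**Figure D3:**
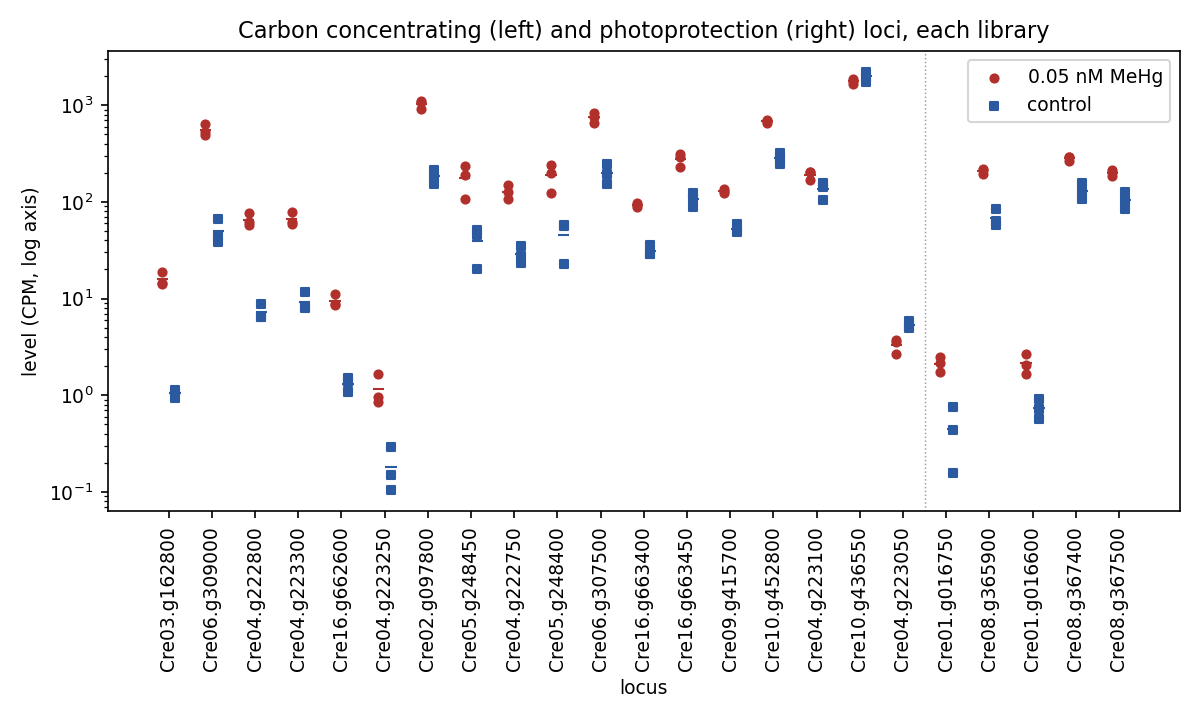
Points give the level (CPM, log axis) of each tested locus of the carbon concentrating mechanism list, left of the dotted line, and of the photoprotection list, right of it, in the 3 libraries at 0.05 nM MeHg (red circles) and the 3 controls (blue squares), with lines at the group means. Loci run from the highest to the lowest log2 change within a list. The red points lie above all blue ones for 16 of the 18 and for all 5 loci, beside 31.8% of all genes.

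The 5 tested loci of the photoprotection list also rose, beside 27.2% of all genes, all 5 of them above all controls in every exposed library. This list recalls stress-related relatives of the light-harvesting antenna, which dissipate excess absorbed light as heat, and 5 of its 6 numbers were in the files. Their log2 changes ran from 0.95 to 2.34 around a median of 1.57, or 2.96-fold, and the summed level was 699 ± 44.2 CPM at 0.05 nM, against 304 ± 60.9 CPM in the controls (SD, n = 3 each). Cre08.g365900 had 194, 216 and 219.5 CPM at 0.05 nM, against 58.03, 84.8 and 63.03 CPM in control libraries, a log2 change of 1.61 ± 0.143 (SE; adjusted p = 6.16e-06). Cre08.g367400 had 266, 294 and 293 CPM at 0.05 nM, against 108, 156 and 126 CPM in control libraries, a log2 change of 1.13 ± 0.143 (SE; adjusted p = 6.04e-05). At both loci the lowest exposed library was well clear of the highest control. The largest change, at Cre01.g016750, rested on few reads, with 2.48, 1.74 and 2.17 CPM at 0.05 nM, against 0.156, 0.753 and 0.433 CPM in control libraries and a log2 change of 2.34 ± 0.373 (SE; adjusted p = 0.000321). Cre01.g016600 was in the same low range, at 1.67, 2.68 and 2.06 CPM at 0.05 nM, against 0.571, 0.904 and 0.721 CPM in control libraries, with a log2 change of 1.57 ± 0.292 (SE; adjusted p = 0.00092). Members of this family are also known to include near-identical copies, whose reads may be shared or lost.

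Nitrogen assimilation, the uptake and reduction of nitrate and its incorporation into amino acids, had 10 recalled loci, of which 9 were in the files and 8 were tested. Of these 5 rose and none fell, beside 27.2% and 25.0% of all genes. The median log2 change of the list was 0.48. Its largest rises were at 3 loci numbered close together. Cre09.g410750 had 40.04, 39.8 and 42.6 CPM at 0.05 nM, against 6.18, 10.7 and 7.57 CPM in control libraries, a log2 change of 2.34 ± 0.159 (SE; adjusted p = 1.88e-06). Cre09.g410850 rose by 1.27 ± 0.172 (SE; adjusted p = 0.000102) on the log2 scale and Cre09.g410950 by 1.19 ± 0.164 (SE; adjusted p = 0.00011). All exposed libraries were above all controls at the 3 loci. Cre12.g514050, more abundant, had 407, 345 and 367 CPM at 0.05 nM, against 307, 244 and 234 CPM in control libraries, a log2 change of 0.51 ± 0.138 (SE; adjusted p = 0.0085). The 3 members that did not pass had log2 changes of -0.03 to 0.32.

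Loci of carbon fixation and photorespiration rose or did not pass. Over all genes 27.2% rose and 25.0% fell, with shares that differed by level. At 10 to 100 CPM 18.4% rose and 36.7% fell, at 100 to 1000 CPM 6.58% and 51.0%, and at 1000 CPM or more 1.18% and 19.4%. The Calvin-Benson loci had means of 35.4 to 6015 CPM. Differences of the lists from these shares were not tested. Of 12 tested loci of the Calvin-Benson cycle (14 recalled, 12 in the files), 2 rose and none fell, with a median log2 change of 0.10, and the summed level was 19096 ± 453 CPM at 0.05 nM, against 18985 ± 2422 CPM in the controls (SD, n = 3 each). The rises were at Cre04.g229300, with 934, 998 and 1021 CPM at 0.05 nM, against 648, 799.8 and 735 CPM in control libraries (log2 change 0.44 ± 0.138 SE, adjusted p = 0.0196), and Cre01.g029300, with 36.8, 39.7 and 38.00 CPM at 0.05 nM, against 34.2, 32.8 and 30.6 CPM in control libraries (log2 change 0.23 ± 0.0883 SE, adjusted p = 0.0456). Both are small, and the count was 5 with the replicate number as a block, 8 with library totals alone, and 0 to 4 when single libraries were left out. Photorespiration, which recycles the product of Rubisco's reaction with oxygen, had 6 recalled loci, all tested. Of these 2 rose and none fell, or 4 rose with the block and 6 with library totals alone. Cre01.g005150 had 362, 392 and 395 CPM at 0.05 nM, against 207, 251 and 226 CPM in control libraries (log2 change 0.75 ± 0.104 SE, adjusted p = 0.00012), and Cre12.g534800 had 292, 317 and 313 CPM at 0.05 nM, against 202, 235 and 234 CPM in control libraries (log2 change 0.46 ± 0.111 SE, adjusted p = 0.00451). The exposed libraries were above all controls at 5 of the 6 loci, including 3 that did not pass, beside 31.8% of all genes. All 6 loci had a mean of 131 to 369 CPM, within the class of 100 to 1000 CPM.

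On the falling side, the tubulin list had the lowest median of the 16 lists. Tubulins form the microtubules of the cytoskeleton and of the flagella. Of 4 recalled numbers 3 were in the files, and all 3 fell, with a median log2 change of -1.16 or 0.447 of the control level. Among all genes at 1000 CPM or more, the class of these 3 loci, 19.4% fell. Cre12.g542250 had 2778, 3076 and 2786 CPM at 0.05 nM, against 5977, 6942 and 7584 CPM in control libraries, a log2 change of -1.25 ± 0.154 (SE; adjusted p = 5.13e-05). Cre12.g549550 had 4218, 6388 and 5467 CPM at 0.05 nM, against 8017, 12943 and 14995 CPM in control libraries, a log2 change of -1.16 ± 0.251 (SE; adjusted p = 0.00235). Cre03.g190950 had 4524, 5229.7 and 4708 CPM at 0.05 nM, against 9440.1, 10416 and 11530.0 CPM in control libraries, a log2 change of -1.12 ± 0.155 (SE; adjusted p = 0.000117). No exposed library reached the lowest control at any of the 3 loci. Their sum was 13058 ± 1589 CPM at 0.05 nM, against 29281 ± 5410 CPM in the controls (SD, n = 3 each). Tubulin genes are known to be near-identical in sequence, and these values rest on the reads that aligned uniquely.

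All 4 tested loci of the photoreceptor list, which recalls light-sensing proteins, fell (5 recalled, 4 in the files), with a median log2 change of -0.60. Cre02.g085257 had 111, 108 and 115 CPM at 0.05 nM, against 236, 234 and 247 CPM in control libraries, a log2 change of -1.10 ± 0.0887 (SE; adjusted p = 3.54e-06). Cre14.g611300 had 730.2, 776 and 764 CPM at 0.05 nM, against 1098, 1207 and 1236 CPM in control libraries, a log2 change of -0.64 ± 0.111 (SE; adjusted p = 0.000549). Replicates of this list were close, with a sum of 1293 ± 17.7 CPM at 0.05 nM and 2025 ± 31.8 CPM in the controls (SD, n = 3 each). Cre03.g199000 fell by a log2 change of -0.57 ± 0.128 (SE; adjusted p = 0.00302), and Cre06.g295200 by one of -0.37 ± 0.109 (SE; adjusted p = 0.0129). With library totals alone 2 of the 4 falls were called. All 4 loci had a mean of 100 to 1000 CPM, a class in which 51.0% of genes fell on the TMM scale.

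Of the 5 tested loci for respiration, the glyoxylate cycle and fermentation, 3 fell and none rose (6 recalled, 5 in the files), with a median log2 change of -0.56. Cre03.g199800 had 436, 484 and 439 CPM at 0.05 nM, against 906, 958 and 1062 CPM in control libraries, a log2 change of -1.11 ± 0.116 (SE; adjusted p = 1.6e-05). Cre09.g396600 had 158, 156 and 155 CPM at 0.05 nM, against 272, 263 and 301 CPM in control libraries, a log2 change of -0.84 ± 0.0955 (SE; adjusted p = 2.99e-05). The groups were far apart at both, and the exposed libraries of Cre09.g396600 were nearly equal. Cre06.g282800 fell less, by a log2 change of -0.42 ± 0.111 (SE, adjusted p = 0.0082). Over all genes 25.0% fell. At 100 to 1000 CPM, the class of Cre03.g199800 and Cre09.g396600, 51.0% fell. At 10 to 100 CPM, the class of Cre06.g282800, 36.7% did. Whether the list differed from these shares was not tested.

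Loci for heat shock proteins and other chaperones, which help proteins to fold, fell or did not pass. Of 20 recalled numbers 16 were in the files and tested. Of these 8 fell, none rose and 8 did not pass, with a median log2 change of -0.43. Of all genes tested, 25.0% fell. At 10 to 100 CPM and 100 to 1000 CPM, where most of these loci lay, 36.7% and 51.0% of genes fell. The difference from these shares was not tested. Cre09.g393200 had 20.7, 14.5 and 11.3 CPM at 0.05 nM, against 73.9, 41.2 and 28.5 CPM in control libraries, a log2 change of -1.63 ± 0.352 (SE; adjusted p = 0.00395). Cre14.g617450 had 49.96, 65.5 and 57.4 CPM at 0.05 nM, against 73.4, 123 and 121 CPM in control libraries, a log2 change of -0.88 ± 0.215 (SE; adjusted p = 0.0054). All exposed libraries were below all controls at these loci, and the controls were the more scattered group. Cre14.g617400 fell by a log2 change of -0.97 ± 0.293 (SE; adjusted p = 0.0189) and Cre12.g514850 by one of -0.94 ± 0.286 (SE; adjusted p = 0.0184). The summed level of the list was 3658 ± 355 CPM at 0.05 nM, against 4851 ± 721 CPM in the controls (SD, n = 3 each), and its most abundant locus, Cre08.g372100, named for its level, had 1507, 1499 and 1283 CPM at 0.05 nM, against 1937, 1857 and 1686 CPM in control libraries and did not pass (log2 change -0.35, adjusted p = 0.187). The count of falls was 4 without 0.05 nM replicate 3, 5 without control replicate 2, and 3 with library totals alone, which also called 1 rise. With the replicate block, 11 fell and 2 rose.

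**Figure D4:**
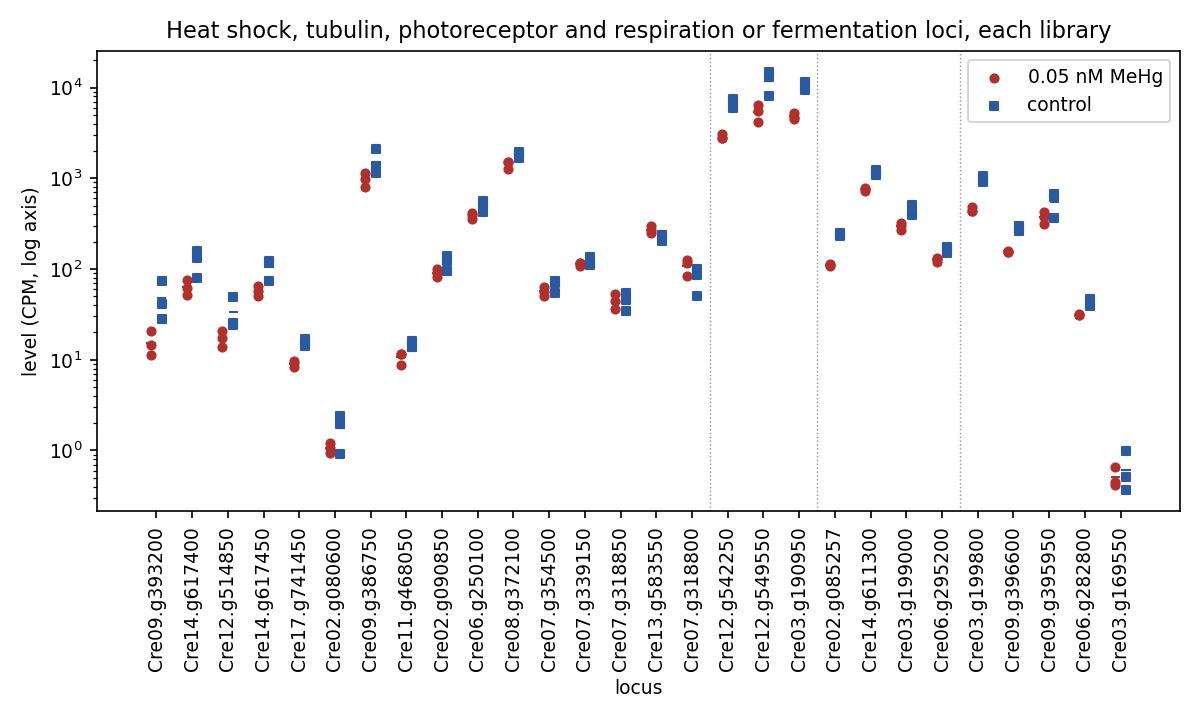
Points give the level (CPM, log axis) of each tested locus in the 3 libraries at 0.05 nM MeHg (red circles) and the 3 controls (blue squares), with lines at the group means; dotted lines separate, from the left, the lists for heat shock, tubulin, photoreceptors, and respiration or fermentation. Red points lie below all blue ones for 9 of 16, 3 of 3, 4 of 4 and 3 of 5 loci, beside 28.3% of all genes.

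Loci that handle thiols and metals changed in both directions. Of 8 tested loci for glutathione and sulfate assimilation, which supply thiols, 5 fell and 1 rose, with a median log2 change of -0.39. Over all genes 25.0% fell and 27.2% rose. At 10 to 100 CPM and 100 to 1000 CPM, where most of these loci lay, 36.7% and 51.0% of genes fell. Whether the list differed from these shares was not tested. Library totals alone gave 1 fall and 2 rises. With the block 6 fell and 2 rose, and with single libraries left out 3 to 5 fell and 0 to 1 rose. Cre16.g688550 had 331, 326 and 286 CPM at 0.05 nM, against 392, 467 and 431 CPM in control libraries, a log2 change of -0.45 ± 0.119 (SE; adjusted p = 0.00771). Cre02.g077100 had 149, 137 and 137 CPM at 0.05 nM, against 223, 204 and 185 CPM in control libraries, a log2 change of -0.53 ± 0.0976 (SE; adjusted p = 0.000828). Both showed no overlap between the groups. Cre12.g502600 changed the most in this list, by a log2 change of -1.13 ± 0.304 (SE; adjusted p = 0.00862), at levels near 1 CPM in the controls. Cre17.g723350 fell by a log2 change of -0.50 ± 0.179 (SE; adjusted p = 0.0336), with overlapping groups.

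Calls in the list for metal uptake and the copper response were near the shares of all genes. Of 14 recalled loci 12 were in the files and 10 tested; 2 rose and 3 fell, beside 27.2% and 25.0% of all genes, and the median log2 change of -0.11 turned to 0.15 with library totals alone. With library totals alone 4 rose and 2 fell. The count of rises was 1 with DESeq2, with its size factors in edgeR, with the control and 0.05 nM libraries alone, and without 0.05 nM replicate 2 or 3, control replicate 1 or 0.5 nM replicate 3. Cre07.g346050 fell the most, with 16.05, 16.00 and 13.1 CPM at 0.05 nM, against 40.4, 38.3 and 33.2 CPM in control libraries and a log2 change of -1.31 ± 0.114 (SE; adjusted p = 5.59e-06). Cre03.g192050 had 326, 346 and 358 CPM at 0.05 nM, against 571, 546 and 543 CPM in control libraries, a log2 change of -0.69 ± 0.0962 (SE; adjusted p = 0.000125). Cre12.g530400 rose, with 92.2, 108 and 109 CPM at 0.05 nM, against 59.3, 76.6 and 73.6 CPM in control libraries and a log2 change of 0.56 ± 0.134 (SE; adjusted p = 0.00416). A rise at Cre17.g700950, at 1.06, 1.63 and 1.78 CPM at 0.05 nM, against 0.363, 0.979 and 1.01 CPM in control libraries, was close to the threshold (log2 change 0.98 ± 0.375 SE, adjusted p = 0.0445).

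Among 10 antioxidant enzyme loci, which remove reactive oxygen, 2 rose and 2 fell, near the 27.2% and 25.0% of all genes. The counts were 4 and 4 with the replicate block and 6 and 1 with library totals alone. Cre10.g458450 had 737, 944 and 841 CPM at 0.05 nM, against 484, 683 and 655 CPM in control libraries, a log2 change of 0.47 ± 0.159 (SE; adjusted p = 0.0272). Cre09.g417150 had 125, 149.6 and 137 CPM at 0.05 nM, against 208, 202 and 252 CPM in control libraries, a log2 change of -0.69 ± 0.115 (SE; adjusted p = 0.000453). The groups did not overlap at either locus. At Cre06.g285150, which rose by a log2 change of 0.88 ± 0.311 (SE; adjusted p = 0.0328), and Cre17.g712100, which fell by one of -0.58 ± 0.173 (SE; adjusted p = 0.0151), the groups overlapped. When single libraries were left out, 0 to 2 loci rose and 1 to 4 fell.

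Few loci of the photosynthetic apparatus changed. Of 13 tested antenna loci, which harvest light, 1 rose and 1 fell (21 recalled, 14 in the files), or 2 fell with the block and 0 to 3 with single libraries left out, and the median log2 change was -0.15, or 0.12 with library totals alone. Cre12.g548400 had 3788, 3705 and 3601 CPM at 0.05 nM, against 4686, 4986 and 5119 CPM in control libraries, a log2 change of -0.41 ± 0.126 (SE; adjusted p = 0.0163), and Cre02.g110750 rose by 0.63 ± 0.15 (SE; adjusted p = 0.00436) on the log2 scale. Of 11 tested photosystem core and electron transport loci, 1 fell (18 recalled, 11 in the files), or 3 with the block and 0 to 2 with single libraries left out, and the median was -0.07, or 0.19 with library totals alone. That locus was Cre10.g452100, with 165, 185 and 201 CPM at 0.05 nM, against 190.1, 292 and 285 CPM in control libraries and a log2 change of -0.48 ± 0.173 (SE; adjusted p = 0.0368). Beside these counts stand the 52.2% of all genes that changed, but most of these loci were at 100 CPM or more. Of genes of 100 to 1000 CPM 6.58% rose and 51.0% fell, and of those at 1000 CPM or more 1.18% rose and 19.4% fell. The difference from these shares was not tested.

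Chlorophyll and heme synthesis, with 13 recalled loci all tested, had 3 rises and 2 falls, beside 27.2% and 25.0% of all genes. Falls numbered 4 with the block and 1 to 5 with single libraries left out. The median log2 change of -0.14 was 0.12 with library totals alone. Cre07.g325500 had 407, 343 and 355 CPM at 0.05 nM, against 263, 224 and 175 CPM in control libraries, a log2 change of 0.74 ± 0.159 (SE; adjusted p = 0.00231). Cre05.g246800 rose by 0.46 ± 0.134 (SE; adjusted p = 0.0126) on the log2 scale. Falls were smaller, with log2 changes of -0.47 ± 0.102 (SE; adjusted p = 0.00236) at Cre12.g498550 and -0.30 ± 0.0897 (SE; adjusted p = 0.0143) at Cre02.g091050. In the list for storage and membrane lipids 1 of 5 tested loci rose and none fell (7 recalled, 5 in the files), beside the same shares. With the block 2 rose and 1 fell. The locus called higher in the main fit was Cre07.g324200, with 38.9, 34.6 and 40.1 CPM at 0.05 nM, against 17.5, 18.8 and 12.3 CPM in control libraries, a log2 change of 1.22 ± 0.155 (SE, adjusted p = 6.25e-05). The median of that list was -0.16, but 0.18 without control replicate 1 and 0.08 with library totals alone.

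**Figure D5:**
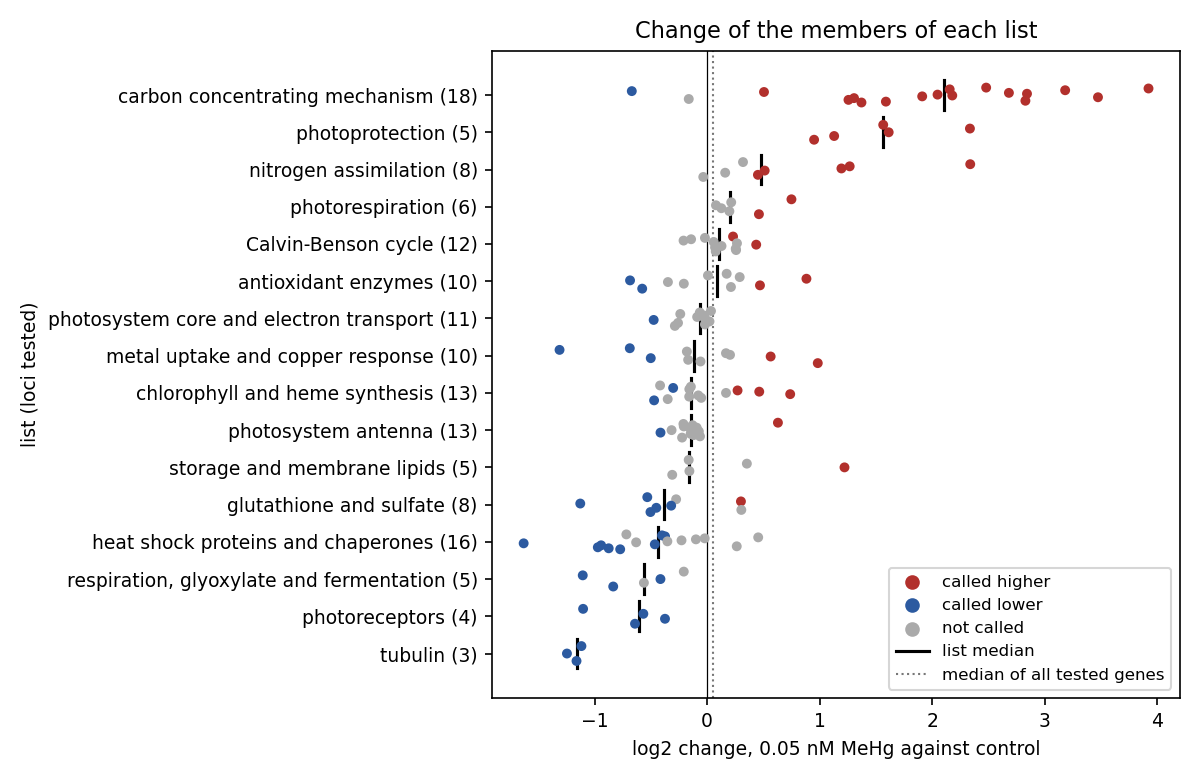
Each point is a tested locus of 1 of the 16 lists, placed by its log2 change at 0.05 nM MeHg against control; red and blue points were called higher and lower, grey points were not called, black bars mark list medians and the dotted line the median of all tested genes. Medians run from 2.10 for the carbon concentrating mechanism to -1.16 for tubulin, and most lists between them hold points on both sides of 0.

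Among called genes of at least 1 CPM whose groups did not overlap, the largest rise outside the lists was at g4485, with 52.1, 48.5 and 65.6 CPM at 0.05 nM, against 2.80, 4.37 and 3.17 CPM in control libraries and a log2 change of 4.02 ± 0.32 (SE; adjusted p = 6.39e-06). Every exposed library was more than 10 times the highest control. Cre14.g634200 had 5.37, 4.68 and 4.0 CPM at 0.05 nM, against 0.675, 0.678 and 0.505 CPM in control libraries (log2 change 2.90 ± 0.213 SE, adjusted p = 2.44e-06), and g16848 had 3.69, 5.05 and 5.39 CPM at 0.05 nM, against 0.415, 0.678 and 0.865 CPM in control libraries (log2 change 2.89 ± 0.26 SE, adjusted p = 6.91e-06). Both were under 1 CPM in every control. Among loci with a mean of at least 100 CPM, Cre06.g281600 rose, with 147, 189 and 213 CPM at 0.05 nM, against 30.2, 52.4 and 46.01 CPM in control libraries, a log2 change of 2.10 ± 0.236 (SE; adjusted p = 3.2e-05). The other 3 largest rises in that level range belonged to the carbon concentrating mechanism list.

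By the same rule, the 6 largest falls were at loci in no list. At g12152 there were 0.202, 0.21 and 0.111 CPM at 0.05 nM, against 3.32, 1.81 and 1.80 CPM in control libraries, a log2 change of -3.70 ± 0.431 (SE; adjusted p = 3.4e-05). Cre13.g567400 had 1.77, 1.32 and 1.5 CPM at 0.05 nM, against 19.4, 12.8 and 13.6 CPM in control libraries, a log2 change of -3.32 ± 0.202 (SE; adjusted p = 1.34e-06). Both were under 2 CPM in every exposed library. Cre03.g205500 and Cre14.g623125 fell by log2 changes of -3.04 ± 0.254 (SE; adjusted p = 4.39e-06) and -2.73 ± 0.257 (SE; adjusted p = 8.83e-06). Cre08.g364550, more abundant, had 16.5, 11.6 and 10.7 CPM at 0.05 nM, against 91.8, 83.8 and 64.05 CPM in control libraries, a log2 change of -2.63 ± 0.203 (SE; adjusted p = 3.1e-06). At g9976 replicate 1 was the highest library of both groups, with 2.38, 0.579 and 0.778 CPM at 0.05 nM, against 13.5, 4.97 and 5.05 CPM in control libraries and a log2 change of -2.66 ± 0.542 (SE; adjusted p = 0.00248). Without 0.05 nM replicate 1 that change was -3.55, and without control replicate 1 it was -1.99.

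Abundant loci in no list fell by up to 2.19 on the log2 scale. Cre02.g074800 had 42.1, 32.2 and 37.00 CPM at 0.05 nM, against 202, 158 and 148 CPM in control libraries, a log2 change of -2.19 ± 0.137 (SE; adjusted p = 1.62e-06). At g15069 there were 175, 134 and 129.8 CPM at 0.05 nM, against 634, 503 and 512 CPM in control libraries, a log2 change of -1.91 ± 0.187 (SE; adjusted p = 1.14e-05). The exposed and control libraries were widely separated at both. Cre06.g302050 had 165, 122 and 92.6 CPM at 0.05 nM, against 543, 398 and 388 CPM in control libraries, a log2 change of -1.81 ± 0.199 (SE; adjusted p = 2.55e-05). Cre03.g180450 had 49.7, 46.5 and 45.4 CPM at 0.05 nM, against 170.3, 152 and 143 CPM in control libraries, a log2 change of -1.72 ± 0.0967 (SE; adjusted p = 1.34e-06). All 4 were without overlap between the groups, and the SE was smallest at Cre03.g180450.

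Whether the lower dose differed from the higher one was tested directly. Of 14778 genes, 121 were higher at 0.05 nM than at 0.5 nM (0.819%) and 2 were lower (0.0135%), while 2002 had an unadjusted p under 0.05. The counts did not hold when single libraries were left out. Without any one of the 0.05 nM replicates, control replicate 2 or 3, or 0.5 nM replicate 1 or 3, no gene passed in edgeR's test. In these fits 1254 to 2020 genes had an unadjusted p under 0.05. The controls are not part of this difference but share its estimate of the spread, and each such fit has fewer libraries. Why the counts went to 0 was not tested. DESeq2 called 604 genes higher and 48 lower. With the replicate block, 1041 genes were higher and 287 lower at 0.05 nM than at 0.5 nM. A gene that misses the threshold here is therefore not shown to respond alike at both doses.

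Among genes changed at 0.05 nM against control, 5 of the 6 named for their difference from 0.5 nM were intermediate between control and the higher dose. Cre03.g155350 had 107, 111 and 107 CPM in control libraries, 47.2, 46.6 and 36.8 CPM at 0.05 nM and 23.99, 26.1 and 20.9 CPM at 0.5 nM, and its log2 difference of 0.05 nM minus 0.5 nM was 0.88 ± 0.118 (SE; adjusted p = 0.0421). Cre10.g447800 had 81.5, 89.5 and 72.4 CPM in control libraries, 47.1, 44.9 and 39.4 CPM at 0.05 nM and 23.9, 27.3 and 22.7 CPM at 0.5 nM, a difference of 0.83 ± 0.115 (SE; adjusted p = 0.0421). At g4542 there were 247, 252 and 243 CPM in control libraries, 171, 169 and 138 CPM at 0.05 nM and 91.4, 99.1 and 79.2 CPM at 0.5 nM, a difference of 0.83 ± 0.115 (SE; adjusted p = 0.0421). At these 3 loci the levels stepped down with dose, without overlap between neighbouring groups. Stepping up, Cre17.g708750 had 66.4, 64.8 and 66.2 CPM in control libraries, 158, 163 and 205 CPM at 0.05 nM and 296, 329.6 and 402 CPM at 0.5 nM, a difference of -0.97 ± 0.134 (SE; adjusted p = 0.0421), and Cre12.g544450 had 1.56, 1.88 and 2.02 CPM in control libraries, 3.80, 2.95 and 3.94 CPM at 0.05 nM and 6.17, 6.54 and 8.14 CPM at 0.5 nM, a difference of -0.95 ± 0.17 (SE; adjusted p = 0.043). Cre01.g025200 was not in that order, with 36.5, 38.6 and 45.4 CPM in control libraries, 28.5, 31.7 and 31.9 CPM at 0.05 nM and 38.3, 49.4 and 51.02 CPM at 0.5 nM, and its difference did not pass (-0.59 ± 0.126 SE, adjusted p = 0.0574).

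Heat shock loci supplied 3 of the list members that differed between the doses, and 1 came from the glutathione and sulfate list, named here because they passed. Cre08.g372100 had 1937, 1857 and 1686 CPM in control libraries, 1507, 1499 and 1283 CPM at 0.05 nM and 741, 841 and 411 CPM at 0.5 nM, a log2 difference of 0.05 nM minus 0.5 nM of 1.11 ± 0.218 (SE; adjusted p = 0.0484). Cre07.g318850 had 45.9, 54.5 and 34.6 CPM in control libraries, 44.04, 52.6 and 36.3 CPM at 0.05 nM and 15.4, 22.6 and 9.60 CPM at 0.5 nM, a difference of 1.47 ± 0.274 (SE; adjusted p = 0.0484). It overlapped with the controls at 0.05 nM and lay below both groups at 0.5 nM. Cre06.g250100 differed by 0.66 ± 0.12 (SE; adjusted p = 0.0436) and Cre16.g688550 by 0.63 ± 0.12 (SE; adjusted p = 0.0459). Over the 16 heat shock loci the median difference was 0.74, with every estimate above 0, beside a median of -0.01 over all genes. At Cre08.g372100 and Cre07.g318850, though not at every heat shock locus, 0.5 nM replicate 3 was the lowest library of that dose. None of the carbon concentrating mechanism loci passed this test, with a median difference of -0.45 and all 18 estimates below 0. At some of them 0.5 nM replicate 3 was far above the other libraries of that dose. Cre04.g222750 had 111, 123 and 294 CPM at 0.5 nM, against 106, 128 and 150 CPM at 0.05 nM. At Cre04.g222800 every library at 0.5 nM (80.6, 90.2 and 143 CPM) was above all those at 0.05 nM. Both loci were picked here after their values were seen, and the part of that replicate in the signs of either list was not tested.

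The authors' deposited table, made with another test on the same counts, listed 3793 genes higher (21.4% of 17737) and 3522 lower (19.9%) at 0.05 nM with an FDR-corrected p under 0.05. Of these, 3657 and 3437 were also called here in the same direction, and 0 in the opposite one.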

How the data were processed

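RNA was sequenced from 9 samples in 3 groups of 3. Per the labels' protocols, a stranded Illumina mRNA kit was used, and per the submitters' processing notes reads went through TopHat2 and HTSeq. Their versions and strand setting, the build and the annotation were not given in the sources used here; overlapping genes may thus share reads. The authors deposited raw counts per gene, and HTSeq's unassigned categories were left out of totals and of the tests (reads outside genes were 1.02% to 1.24% of assigned, ambiguous and outside reads together). Depth, 15138888 to 20433375 counts per library, limits the precision of loci near 1 CPM. The authors also deposited, per the file headers, p-values and FDR-corrected p-values of their own test, and a score column of signed fold ratios, which are quoted as theirs.

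Genes were kept by filterByExpr, scaled by TMM and fitted in edgeR 4.0.16 (R 4.3.3) with a robust quasi-likelihood model of all 9 libraries, group as the only term and 6 residual degrees of freedom; SEs were computed from each fold change and its F statistic. Benjamini-Hochberg adjustment ran over 14778 genes at a threshold of 0.05. Each p-value sets a group difference against the spread between these libraries, and it is not stated whether that spread covers separate cultures of several days. Alternatives were DESeq2 1.42.0, its size factors or library totals in edgeR, no low-count filter, 2 groups only, a replicate block, and each library left out.

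Same-numbered exposed and control libraries deviated together (correlations 0.63, 0.28 and 0.21 for replicates 1, 2 and 3), and the numbers were taken to pair the samples because each correlation was over 0.1. This comes from the data and not from the labels, and it sets only replicate 1 apart: 0.05 nM replicate 2 also correlated with control replicate 3 (0.37) and 0.05 nM replicate 3 with control replicate 2 (0.18). The main fit does not use the pairing, and only the alternative with the replicate block does. Which of these fits suits the design better is not settled by the labels. Replicates of a group differed beyond sampling noise in every pair. The members and lists were chosen with earlier results of these data known. Identifiers are named by rule: up to 4 called members per list with the largest change; the 6 largest rises and falls among called genes of at least 1 CPM without overlap; the 4 largest of each among those of at least 100 CPM; and, among genes called against control, the 3 with the smallest p against 0.5 nM in each direction. Others are said to be chosen after their values were seen. Of 17737 identifiers, 11713 matched a RefSeq gene table, which lists 0 symbols beyond locus tags and served only to tell neighbouring loci. A further 20 protein families were not analysed here.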

Additional observations from a re-analysis of the deposited data

How the results depend on the processing

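No gene called at 0.05 nM against control was called in the opposite direction under any of the 15 alternatives. All of them refit the same counts, so this is not independent support. Leaving out 1 library at a time gave 3239 to 4074 higher and 3150 to 3765 lower genes, with 1244 to 1473 and 995 to 1119 past a log2 change of 1. Library totals alone gave 2080 lower genes, 2298 higher and 449 lower by at least 1, and in the comparison with 0.5 nM 0 higher and 0 lower. In that comparison DESeq2 gave 604 higher and 48 lower and the replicate block 1041 and 287, while single libraries left out gave 0 to 363 higher and 0 to 20 lower (363 and 20 without control replicate 1, 191 and 9 without 0.5 nM replicate 2); the cause was not tested. The block, which uses the pairing of replicate numbers, gave 4900 higher and 4500 lower genes against control. Of 72 named genes, 53 kept their call against control in every alternative and none reversed. Of the 6 named for their difference from 0.5 nM, the 5 that passed each lost that call in 8 alternatives.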

Other observations

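Position along the genome was looked at with the order of loci in the RefSeq table, as a description. Among 2425 pairs of adjacent loci that both changed at 0.05 nM against control, 1410 changed in the same direction, or 58.1%. For loci 2 apart the share was 53.4%, and for loci 5, 20 and 50 apart it was 49.5%, 51.0% and 49.9%. The Pearson correlation of log2 changes over adjacent pairs was 0.124; pairs share loci and are not independent.

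Runs of at least 4 adjacent loci that all had a log2 change of 1 or more in the same direction numbered 4. They were chosen by their values. The run from Cre02.g083400 to Cre02.g083550 rose, with log2 changes of 1.20 to 3.99, and the run from Cre06.g249500 to Cre06.g249600 rose by 1.11 to 1.54. The loci from Cre09.g397450 to Cre09.g397300 rose by 1.06 to 1.30. Those from Cre08.g366800 to Cre08.g366900 fell, with log2 changes of -1.44 to -1.08. Counting reads without a stated strand setting can tie neighbours together, and its part was not tested. Per chromosome, over the 17 chromosomes, 25.6% to 30.7% of tested genes rose and 22.7% to 30.1% fell.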
